A study of Mus musculus with 18 samples.

Results

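The interferon-stimulated and guanylate-binding genes are 41 named genes that cells transcribe after interferon or after sensing foreign nucleic acid. They were found in the deposited table by gene symbol, and all 41 were present among its 55450 genes. The table comes from ED1SQ4 cells, a murine lung cancer line, treated with vehicle or with 0.5 μM CYC065, an inhibitor of CDK2 and CDK9, for 72 hours. RNA was profiled from 6 groups: vehicle and CYC065 each in unsorted cells, in cells sorted as diploid (2N) and in cells sorted as polyploid (4N) on a stain for DNA content. Diploid cells that have replicated their DNA also carry a 4N content, so either 4N group can hold them as well as polyploid cells. The samples share 1 cell line and 1 time point, with no interferon-treated group.

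Type I interferons signal through a receptor made of IFNAR1 and IFNAR2 to a complex that includes STAT2 and IRF9 and binds a promoter sequence called the interferon-stimulated response element (ISRE). Type II interferon acts through another promoter sequence, the gamma-activated site (GAS), and IRF1 binds ISRE-like sequences as well. The products include sensors of viral RNA and DNA, enzymes and binding proteins that block viral growth, ubiquitin-like ISG15, and 2 families of GTPases, the guanylate-binding proteins (GBPs) and the immunity-related GTPases (IRGs), that gather on the membranes around intracellular microbes. Some members keep a basal level without interferon.

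Each group has 3 columns, which the labels call replicates. The 3 columns of a group differed by no more than sampling noise over genes with whole counts, where chi-square per degree of freedom lay between 0.991 and 1.02, and their library names differ only in a part number. They were therefore summed to 1 library per group, with 54750168 to 62795451 counts. With 1 library per group there is no test and no p-value here. A difference is given as the ratio of CPM, counts scaled to a common library size, after TMM scaling, with a 95% exact binomial (Clopper-Pearson) interval that covers counting error only, not the spread between cultures. A gene was compared where at least 1 of both libraries held 30 counts, and was called higher or lower past a 2-fold change, which is 1 on the log2 scale.

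Markers of the labelled lung cancer cells and of other cells were read first. *Epcam*, which defines epithelium, had 0 to 1 count in each library, and the 6 epithelial markers summed to 25 to 87 counts. The 4 fibroblast markers *Col1a1*, *Col1a2*, *Pdgfra* and *Dcn* summed to 350937 to 502424 counts in the vehicle libraries and to 616096 to 812183 in the CYC065 libraries. With CYC065, 2, 3 and 2 of the 4 were more than 2-fold higher in unsorted, 2N and 4N cells, with 3.13, 2.14 and 2.48-fold for *Pdgfra*. The 4 pan-leukocyte markers summed to 17 to 33 counts with vehicle and to 30 to 68 with CYC065. Among them *Ptprc*, which defines leukocytes, had 0 to 1 count, *Cd53* had 10 to 48 and was 3.17-fold higher with CYC065 in 2N cells, and *Laptm5* had 0 in all vehicle libraries and 6 to 10 with CYC065. The 6 lymphocyte markers summed to 0 to 4 counts. The 6 macrophage and dendritic markers summed to 273 to 338 counts in the vehicle libraries and to 649 to 1481 in the CYC065 libraries. The largest part of that came from *Cd68*, a lysosomal protein gene, at 2.67, 6.88 and 5.21-fold. *Csf1r*, a macrophage growth factor receptor gene, had 77 to 115 counts with vehicle and 38 to 69 with CYC065, *Lyz2* had 0 to 6 and 10 to 17, and *Adgre1*, the defining macrophage gene, had 0 to 1. The part of fibroblast, leukocyte and macrophage markers in the results was not tested.

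What the members share in sequence was read from RefSeq promoter windows (build GRCm38.p6), which run from 250 bases before to 50 bases after a transcription start. Windows were found for 29 of the 41 members. The ISRE core was searched as GAAANNGAAA and the GAS core as TTCNNNGAA, both on either strand, and 1 GAS match overlapped an ISRE match in the members' windows. An ISRE core stood in the windows of 17 of the 29 members, which is 58.6%, against 3.99% of the 27025 genes with a window. A GAS core stood in 8 members, 27.6% against 9.55% of all genes. Of the 29, 5 members held both motifs, 12 only the ISRE core, 3 only the GAS core and 9 neither. Of the 24 ISRE matches that lay before the start, 15 began within 100 bases of it. A match is a description of letters and not a measured binding site.

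The promoters of 3 members that held different motifs are shown over the 250 bases before the start, 5′ to 3′ on the gene's own strand, with ISRE and GAS matches in capitals. *Gbp7* (chr3:142530086-142530335, plus strand) held 2 GAS matches and 1 ISRE match, *Isg15* (chr4:156200819-156201068, minus strand) held 3 overlapping ISRE matches, and *Irf1* (chr11:53769764-53770013, plus strand) held 1 GAS match and no ISRE match.
Gbp7: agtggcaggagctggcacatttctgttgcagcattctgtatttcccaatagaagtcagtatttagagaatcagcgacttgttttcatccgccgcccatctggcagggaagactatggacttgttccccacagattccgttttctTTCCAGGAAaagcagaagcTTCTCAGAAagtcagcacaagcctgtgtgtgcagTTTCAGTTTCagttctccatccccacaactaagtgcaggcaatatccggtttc
Isg15: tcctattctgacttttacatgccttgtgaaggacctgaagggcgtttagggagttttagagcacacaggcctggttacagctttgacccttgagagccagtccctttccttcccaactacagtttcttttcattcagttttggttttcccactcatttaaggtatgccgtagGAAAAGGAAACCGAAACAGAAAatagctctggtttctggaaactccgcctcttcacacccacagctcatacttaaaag
Irf1: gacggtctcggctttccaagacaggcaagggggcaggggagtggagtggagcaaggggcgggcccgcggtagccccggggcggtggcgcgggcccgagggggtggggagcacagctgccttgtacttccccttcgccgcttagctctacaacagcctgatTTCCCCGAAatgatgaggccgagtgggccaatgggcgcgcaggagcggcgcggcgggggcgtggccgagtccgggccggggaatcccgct

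The 60 bases around the ISRE match are shown for GTPase genes that had unlike values below, and for *Ifit3*. All 3 GBP members with a window held the ISRE core, as did 3 of the 4 IRG members with a window. The GBP members *Gbp4*, *Gbp6* and *Gbp8* and the IRG member *Iigp1* had no window. The stretches of *Igtp* and *Irgm2* differed at 2 of 60 positions. The stretch of *Ifit3* was repeated letter for letter upstream of *Ifit3b*. They lie at chr3:142620579-142620638 (*Gbp2*, plus), chr3:142559977-142560036 (*Gbp3*, plus), chr11:58199496-58199555 (*Igtp*, plus), chr11:58214887-58214946 (*Irgm2*, plus), chr11:48871421-48871480 (*Irgm1*, minus) and chr19:34583365-34583424 (*Ifit3*, plus).
Gbp2: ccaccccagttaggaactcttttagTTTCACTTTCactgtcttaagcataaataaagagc
Gbp3: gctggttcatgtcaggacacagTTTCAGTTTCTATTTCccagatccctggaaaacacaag
Igtp: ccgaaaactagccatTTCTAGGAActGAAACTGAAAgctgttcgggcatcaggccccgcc
Irgm2: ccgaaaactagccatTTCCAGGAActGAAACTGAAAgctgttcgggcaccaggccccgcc
Irgm1: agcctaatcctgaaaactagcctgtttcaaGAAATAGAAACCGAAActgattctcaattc
Ifit3: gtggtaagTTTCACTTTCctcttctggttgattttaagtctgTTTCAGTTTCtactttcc

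The 41 members divided by level. *Ifih1*, which encodes the RNA sensor MDA5, and *Cmpk2*, a mitochondrial nucleotide kinase gene, were listed at 0 in all 6 libraries. A further 4 members, *Oas2*, *Mx1*, *Rsad2* and *Iigp1*, reached 1 to 3 counts at most, and 8 reached 4 to 29. *Rsad2* encodes the antiviral enzyme viperin and *Mx1* an antiviral GTPase. The other 27 reached at least 30 counts, of which 24 reached at least 100, and these are described by role below. Per kb of exon, the highest levels in vehicle unsorted cells were those of *Irf1* with 13.0, *Gbp2* with 9.48 and *Bst2* with 8.95 CPM per kb, and in CYC065 unsorted cells those of *Irf1* with 18.2 and *Bst2* with 15.4. Counts of 3 libraries of a treatment are given in the order unsorted, 2N, 4N.

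**Figure D1:**
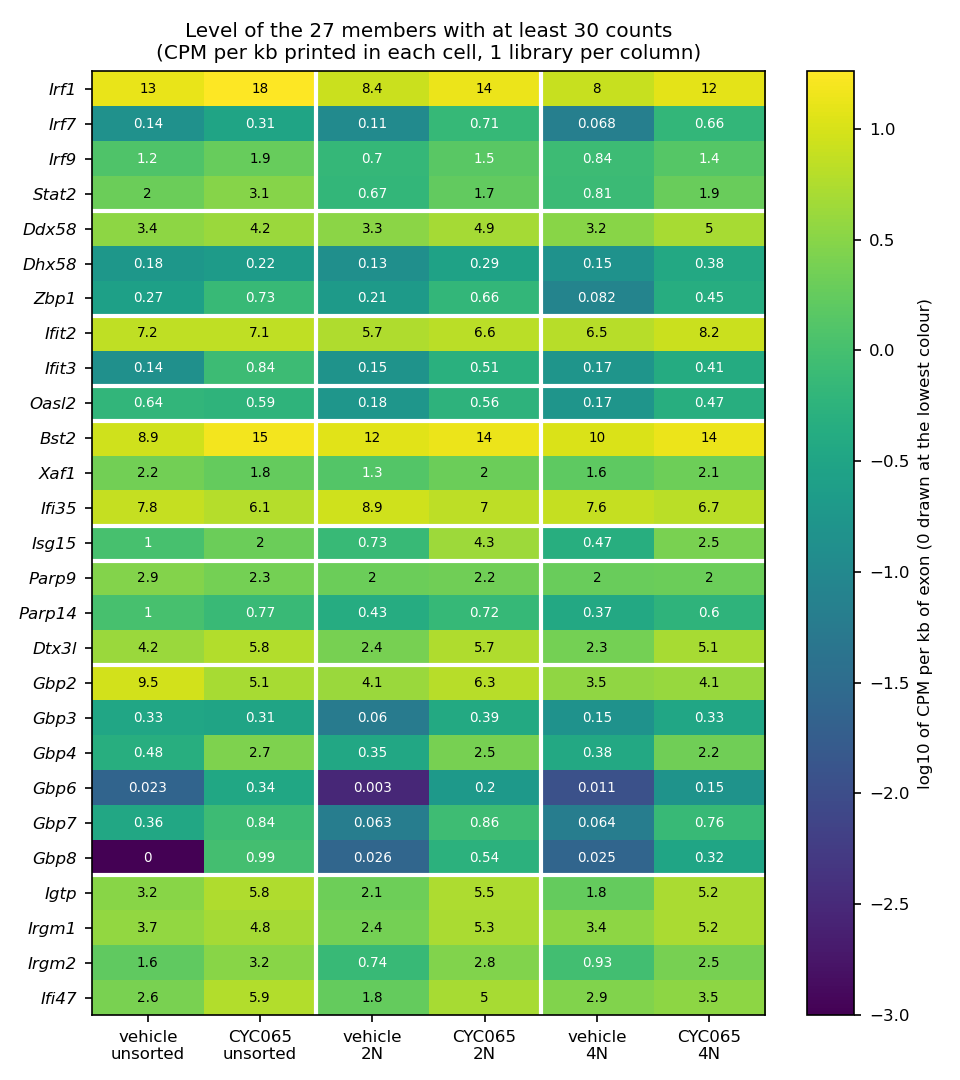
Levels of the 27 members with at least 30 counts in CPM per kb of exon, printed in each cell and coloured on a log10 scale, with 1 library per column and white lines between role groups. *Irf1*, *Bst2*, *Ifit2* and *Ifi35* were among the highest in every column, while *Gbp6* and *Gbp8* were near or at 0 in the vehicle columns.

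With CYC065, 8 of 27 members were called higher in unsorted cells, 18 of 27 in 2N cells and 15 of 27 in 4N cells. Of all genes compared, 11.8% were called higher in unsorted, 14.9% in 2N and 14.2% in 4N cells. No member was called lower in these comparisons, in which 14.0%, 13.3% and 11.5% of all genes were. The median log2 ratio of the members was 0.61 in unsorted, 1.36 in 2N and 1.16 in 4N cells, against −0.07, −0.07 and −0.03 over all genes compared. Ratios were above 0 for 19 of 27 members in unsorted cells and for 26 of 27 in both sorted populations, where *Ifi35* was the exception. Separate TMM scaling of sorted libraries gave 25 of 27 in 4N cells, where *Parp9* turned below 0, and 20 of 27 in unsorted cells. Of all genes compared, ratios were above 0 for 6505 of 14082 in unsorted, 6572 of 14090 in 2N and 6849 of 14183 in 4N cells. In 25 of the 27 members, both sorted CYC065 libraries lay above both sorted vehicle libraries. The share of all genes with that order was not computed.

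A minimum count reached in only the higher library favours a difference, and 3, 7 and 9 of the 27 members passed through only 1 library in unsorted, 2N and 4N cells. Among the 19 members with a mean of at least 100 counts over the 6 libraries, a limit chosen after the data were seen, 3, 10 and 7 were called higher in unsorted, 2N and 4N cells. The same limit gave 8.76%, 10.2% and 9.14% of all genes. In bulk RNA, a change in the share of cells that express a gene and a change of RNA per cell cannot be told apart.

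**Figure D2:**
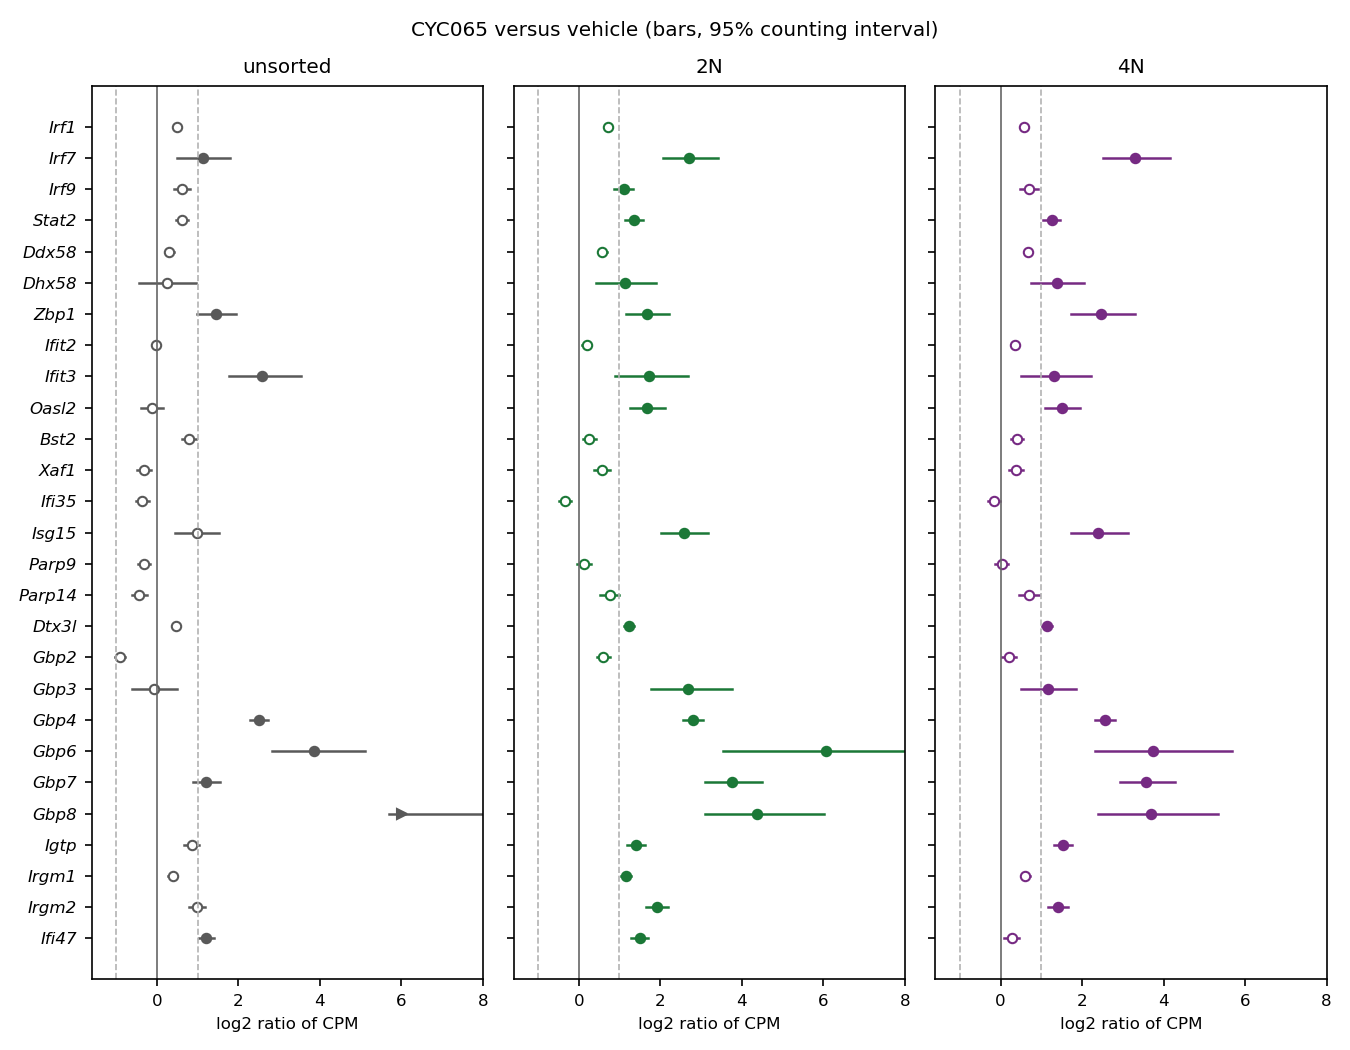
Log2 ratio of CPM between CYC065 and vehicle for the 27 members in unsorted, 2N and 4N cells, with bars for the 95% counting interval (cut at the axis limit), filled points for calls past 1 (dashed line) and an arrowhead for a lower bound. The points of *Gbp4*, *Gbp6*, *Gbp7* and *Gbp8* lie past 1 in all 3 panels, and *Ifi35* lies left of 0 in all 3.

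The largest ratio of each population was that of a GBP gene, *Gbp8* in unsorted and *Gbp6* in 2N and 4N cells. *Gbp4* held 205, 149 and 165 counts with vehicle and 1124, 1081 and 1119 with CYC065. All 3 CYC065 libraries were above all 3 vehicle libraries, and the ratios were 5.71-fold in unsorted, 6.97-fold in 2N and 5.87-fold in 4N cells, with log2 intervals of 2.30 to 2.74, 2.55 to 3.06 and 2.32 to 2.80.

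*Gbp7* held 117, 20 and 21 counts with vehicle and 261, 282 and 287 with CYC065. The CYC065 libraries were alike, and the unsorted vehicle library was above both sorted ones, so that the log2 ratio was 1.22 in unsorted cells and 3.76 and 3.57 in 2N and 4N cells. The difference of −2.54 between the unsorted and the 2N ratio had a counting interval of −3.27 to −1.82. *Gbp7* shares 12.7% of its 50-base stretches with other genes.

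*Gbp6* held 8, 1 and 4 counts with vehicle and 111, 70 and 62 with CYC065. *Gbp8* held 0, 5 and 5 counts with vehicle and 187, 108 and 74 with CYC065. Neither gene's groups overlapped. *Gbp8* was at least 64.9-fold higher with CYC065 in unsorted cells, taking 3 counts as the floor for the vehicle library, and 20.8-fold and 12.8-fold higher in 2N and 4N cells. For *Gbp6* the ratio of 67.3-fold in 2N cells rested on 1 vehicle count, and its log2 interval ran from 3.55 to 11.40. The share of 50-base stretches of exon found in another gene was 70.7% for *Gbp6* and 18.1% for *Gbp8*, so the split of counts with their copies is uncertain.

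*Gbp3* reached fewer counts, 61, 11 and 28 with vehicle and 56, 74 and 72 with CYC065. Its libraries were alike in unsorted cells, and its log2 ratio was −0.07 (interval −0.61 to 0.48) there, 2.69 in 2N and 1.16 in 4N cells.

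*Gbp2* was the member with the lowest ratio in unsorted cells. It held 1367, 584 and 521 counts with vehicle and 701, 924 and 695 with CYC065. The unsorted vehicle library was the highest of the 6, and the log2 ratio was −0.91 (interval −1.04 to −0.77) in unsorted cells against 0.60 (0.45 to 0.76) in 2N and 0.21 (0.04 to 0.37) in 4N cells.

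The mouse GBP genes lie in a cluster on chromosome 3 and another on chromosome 5 (mm10). All 6 chromosome 5 genes (the members *Gbp4*, *Gbp6* and *Gbp8* with *Gbp9*, *Gbp10* and *Gbp11*) were called higher with CYC065 in unsorted, 2N and 4N cells, with median log2 ratios of 3.57, 4.19 and 3.71, while 11.8%, 14.9% and 14.2% of all genes were. In each comparison 4 of the 6 passed the count limit only through the CYC065 library, which favours the call. Of the 5 chromosome 3 genes, 3 were compared (*Gbp2*, *Gbp3* and *Gbp7*), of which 1, 2 and 2 were called higher. The other 2, *Gbp2b* and *Gbp5*, held at most 20 counts in any library. The grouping by chromosome was chosen with the values known.

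*Gbp9*, at chr5:105077630-105139539 on the minus strand, had 922, 331 and 326 counts with vehicle and 8672, 5539 and 5780 with CYC065, and its 30.5, 18.3 and 16.5 CPM per kb with CYC065 were the highest level of any GBP gene there. Its ratios were 9.79-fold, 16.1-fold and 15.4-fold. *Gbp11*, a polymorphic pseudogene in the annotation, had 13, 2 and 2 counts with vehicle and 487, 297 and 185 with CYC065. In the annotation (mm10, GENCODE M21) the spans of *Gbp4* (chr5:105115767-105139586) and *Gbp8* (chr5:105014150-105139540) overlap over 23774 bases and both overlap *Gbp9*, so counts of these 3 genes are not wholly separate. *Gbp10* shared 84.1% and *Gbp11* 19.2% of their 50-base stretches with other genes.

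**Figure D3:**
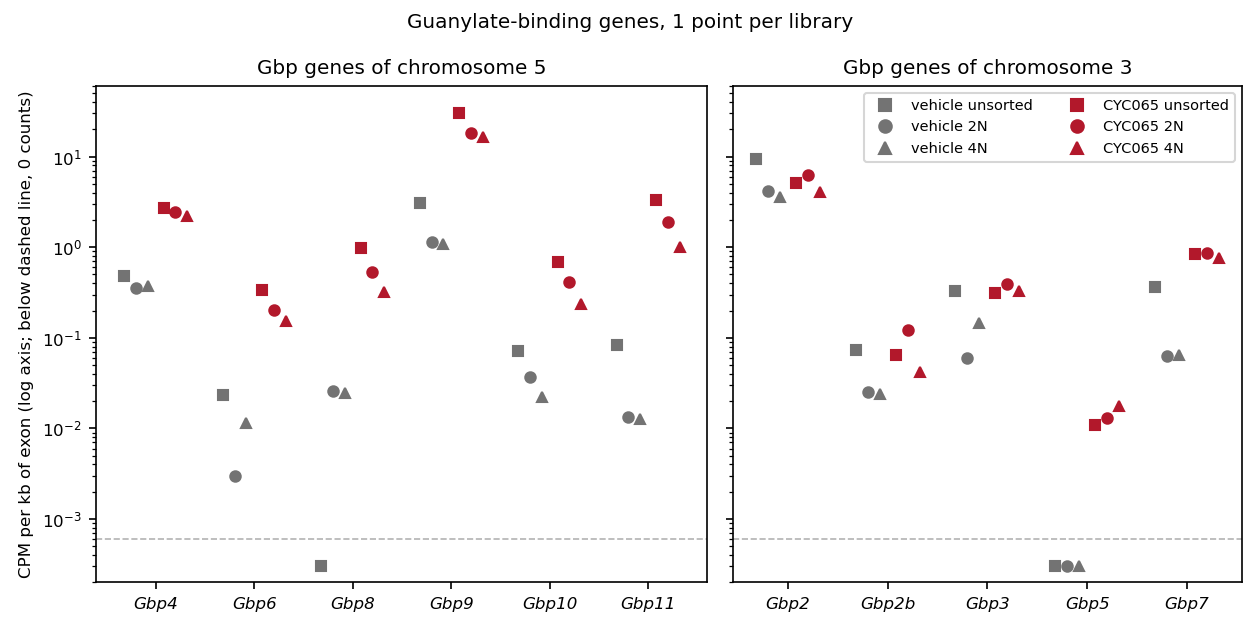
CPM per kb of exon on a log axis for the 6 GBP genes of chromosome 5 and the 5 of chromosome 3, with 1 point per library and points under the dashed line for 0 counts. For each chromosome 5 gene the 3 CYC065 points lie above the 3 vehicle points, whereas the points of *Gbp2* overlap.

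Of the 5 IRG members, 4 were compared and *Iigp1* held 0 to 2 counts. *Igtp*, which encodes the regulatory GTPase Irgm3, held 370, 237 and 213 counts with vehicle and 641, 655 and 711 with CYC065. *Irgm2*, from the same regulatory group, held 347, 154 and 201 with vehicle and 657, 604 and 615 with CYC065. For both genes the groups did not overlap, with ratios of 1.80, 2.66 and 2.89-fold for *Igtp* and of 1.97, 3.77 and 2.65-fold for *Irgm2* in unsorted, 2N and 4N cells. The annotated spans of both overlap on the same strand over 7974 bases. *Igtp* shares 11.8% of its 50-base stretches with other genes, mainly *Irgm2*.

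*Irgm1*, the third regulatory gene, held 1225, 778 and 1161 counts with vehicle and 1544, 1813 and 2042 with CYC065. Its groups did not overlap, and only the 2N ratio of 2.24-fold passed 2-fold. *Ifi47* held 362, 249 and 416 counts with vehicle and 808, 730 and 582 with CYC065. Its ratios were 2.32-fold in unsorted and 2.82-fold in 2N cells but 1.21-fold in 4N cells.

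Of the transcription factors, *Irf7*, which amplifies type I interferon production, held 31, 23 and 15 counts with vehicle and 65, 157 and 169 with CYC065. All CYC065 libraries were above all vehicle libraries, and the unsorted one lay below both sorted ones. The log2 ratio was 1.13 (interval 0.49 to 1.79) in unsorted, 2.71 (2.08 to 3.41) in 2N and 3.29 (2.52 to 4.16) in 4N cells.

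*Stat2* held 688, 222 and 280 counts with vehicle and 1009, 593 and 769 with CYC065, and was 1.53, 2.57 and 2.38-fold higher in unsorted, 2N and 4N cells. *Irf9*, its partner in the ISRE-binding complex, held 378, 211 and 265 counts with vehicle and 558, 471 and 498 with CYC065. Its ratio passed 2-fold in 2N cells only, at 2.14-fold.

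*Irf1*, which had the highest level of the 4, held 2965, 1871 and 1871 counts with vehicle and 3982, 3179 and 3214 with CYC065. Its ratios of 1.40, 1.63 and 1.49-fold stayed under 2-fold, with counting intervals above 0 on the log2 scale. In CPM its groups overlapped, with 51.7 in vehicle unsorted cells against 47.5 in CYC065 4N cells.

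*Isg15*, the ubiquitin-like modifier, held 45, 31 and 21 counts with vehicle and 85, 192 and 127 with CYC065. The sorted CYC065 libraries were the highest. Its ratios were 1.97-fold in unsorted, 5.95-fold in 2N and 5.24-fold in 4N cells. *Usp18*, which removes ISG15 from proteins and damps interferon receptor signalling, reached 26 counts at most, in CYC065 4N cells.

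Among the nucleic acid sensors, *Zbp1*, a sensor of left-handed nucleic acid, held 54, 41 and 17 counts with vehicle and 142, 137 and 108 with CYC065. Its ratios were 2.74, 3.21 and 5.50-fold. *Ddx58*, which encodes RIG-I, held 1376, 1305 and 1309 counts with vehicle and 1636, 2033 and 2397 with CYC065. The groups did not overlap, and the log2 ratios of 0.31, 0.58 and 0.67 were under 1.

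*Dhx58*, which encodes the related helicase LGP2, reached 34, 24 and 28 counts with vehicle and 39, 55 and 84 with CYC065. Its 2N and 4N log2 ratios of 1.14 and 1.38 had intervals that reached down to 0.42 and 0.75.

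Of the 4 IFIT members, which bind viral RNA, only *Ifit2* was well covered. It held 1615, 1262 and 1487 counts with vehicle and 1533, 1509 and 2186 with CYC065. The groups overlapped, and the log2 ratio was −0.02 (interval −0.12 to 0.08) in unsorted, 0.20 in 2N and 0.35 in 4N cells. *Ifit3* held 14, 15 and 17 counts with vehicle and 81, 52 and 49 with CYC065, which gave 6.03, 3.33 and 2.50-fold. It shares 51.2% of its 50-base stretches with other genes, mainly *Ifit3b*, which reached 28 counts. *Ifit1* held 0 to 5 counts.

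Of the 5 OAS members, which make the activator of RNase L or are related to the enzymes that do, only *Oasl2* passed 30 counts. It held 234, 63 and 62 counts with vehicle and 207, 210 and 204 with CYC065. The unsorted libraries were alike, with a log2 ratio of −0.12 (interval −0.40 to 0.16), whereas both sorted vehicle libraries were low, with ratios of 3.20-fold in 2N and 2.85-fold in 4N cells. *Oas1a*, *Oas2*, *Oas3* and *Oasl1* reached 10, 1, 9 and 26 counts at most.

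Of the 8 Mx and other antiviral effectors, 3 were compared, and each of these differed by less than 2-fold. *Bst2*, which tethers budding virus to the cell, held 463, 587 and 553 counts with vehicle and 766, 732 and 843 with CYC065, with log2 ratios of 0.78, 0.26 and 0.40. *Ifi35* held 773, 859 and 765 counts with vehicle and 580, 704 and 784 with CYC065. Its CPM was lower with CYC065 throughout, with log2 ratios of −0.36, −0.34 and −0.17. *Xaf1*, which encodes an antagonist of the apoptosis inhibitor XIAP, held 598, 351 and 441 counts with vehicle and 462, 546 and 663 with CYC065. The unsorted pair was ordered the other way round from the sorted pairs, at −0.31 against 0.58 and 0.38. Under the count limit, *Mx2*, a relative of *Mx1*, held 7, 0 and 2 counts with vehicle and 11, 11 and 19 with CYC065, and *Ifi44* held 1, 0 and 1 with vehicle and 4, 9 and 8 with CYC065.

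The PARP9-DTX3L group holds ADP-ribosyltransferases and a ubiquitin ligase that act together. *Dtx3l*, the ligase, held 1384, 787 and 784 counts with vehicle and 1839, 1921 and 1989 with CYC065, with log2 ratios of 0.47, 1.23 and 1.14. *Parp9*, its partner, held 809, 542 and 559 with vehicle and 627, 618 and 658 with CYC065, with log2 ratios of −0.31, 0.13 and 0.03. The 2 genes lie head to head on chromosome 16 and overlap over 682 bases on opposite strands, and whether counting used the strand is not given in the sources used here. *Parp14* held 553, 224 and 202 with vehicle and 395, 394 and 378 with CYC065, with log2 ratios of −0.43, 0.76 and 0.70.

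Levels in vehicle cells differed between unsorted and sorted libraries. In 20 of the 24 members with at least 100 counts, the CPM of unsorted vehicle cells lay above that of both sorted vehicle libraries, against 39.2% of all 12387 genes at that count. With CYC065 it did so in 15 of 24, against 37.8% of all genes. The log2 ratio of CYC065 to vehicle was lower in unsorted than in 2N cells for 24 of 27 members. The counting interval of that difference lay wholly below 0 for 19 and above 0 for 1, *Bst2*. How many of all genes differed in this way was not computed. The ratios are given side by side in the plot of unsorted against 2N cells. Unsorted and sorted cells differ in sorting and in ploidy mix at once, and these cannot be told apart.

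**Figure D4:**
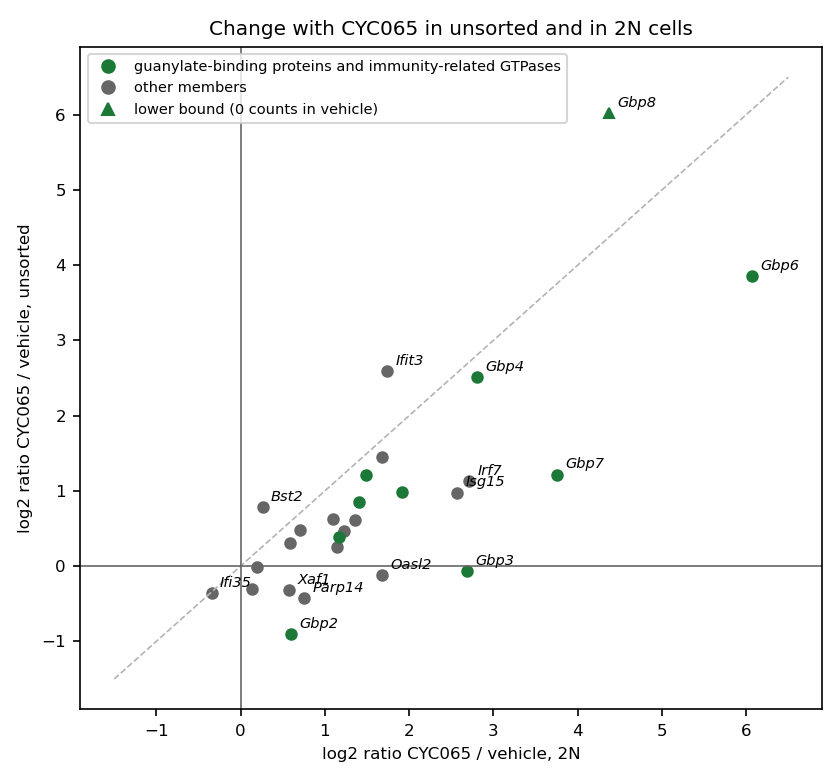
Log2 ratio of CYC065 to vehicle in unsorted cells (vertical) against 2N cells (horizontal) for the 27 members, with the dashed line for equal ratios and a triangle for a lower bound. Of the 27 points, 24 lie below the line, and 7 (*Gbp2*, *Gbp3*, *Parp9*, *Parp14*, *Xaf1*, *Ifit2* and *Oasl2*) lie below 0 on the vertical axis and above 0 on the horizontal axis, of which *Ifit2* turns above 0 on both with separate TMM scaling or DESeq2 size factors.

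The members were then compared between 4N and 2N cells. Either 4N group can hold replicated diploid cells, so ploidy and stage of the cell cycle cannot be told apart. With vehicle, 0 of 20 members compared were called higher and 1 was called lower, while 1.03% of all genes were called higher and 1.69% lower. The 1 member was *Zbp1*, with 41 counts in the 2N library, 17 in the 4N library and a log2 ratio of −1.33, with an interval of −2.24 to −0.48. With CYC065, 0 of 27 were called in either direction, against 1.60% of all genes higher and 2.05% lower. The median ratio of the members was −0.06 with vehicle and −0.16 with CYC065.

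Differences between 4N and 2N cells were small with CYC065. Of the members, 22 of 27 had a lower CPM in 4N than in 2N cells (21 with library size scaling). Their counting interval lay below 0 for 10 and above 0 for 2. Of all genes compared, 6570 of 14180 were lower, with the interval below 0 for 3536 and above 0 for 4357. The largest difference of a member was that of *Isg15*, with a log2 ratio of −0.81 (interval −1.14 to −0.48). It was followed by *Gbp8* with −0.76 and *Gbp2* with −0.62. *Ifit2* and *Stat2* were the 2 members with intervals above 0, at 0.32 and 0.16.

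The ratio of CYC065 to vehicle was lower in 4N than in 2N cells for 19 of 27 members, with a median difference of −0.17. Its counting interval lay below 0 for 7 members, which were *Irf1*, *Irf9*, *Gbp2*, *Gbp3*, *Irgm1*, *Irgm2* and *Ifi47*, and above 0 for *Ifit2*. Shares over all genes were not computed for this difference. The difference was −1.22 (interval −1.49 to −0.94) for *Ifi47* and −0.56 (−0.72 to −0.40) for *Irgm1*. In both genes the vehicle 4N library was above the vehicle 2N library, by 1.60-fold and 1.43-fold.

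**Figure D5:**
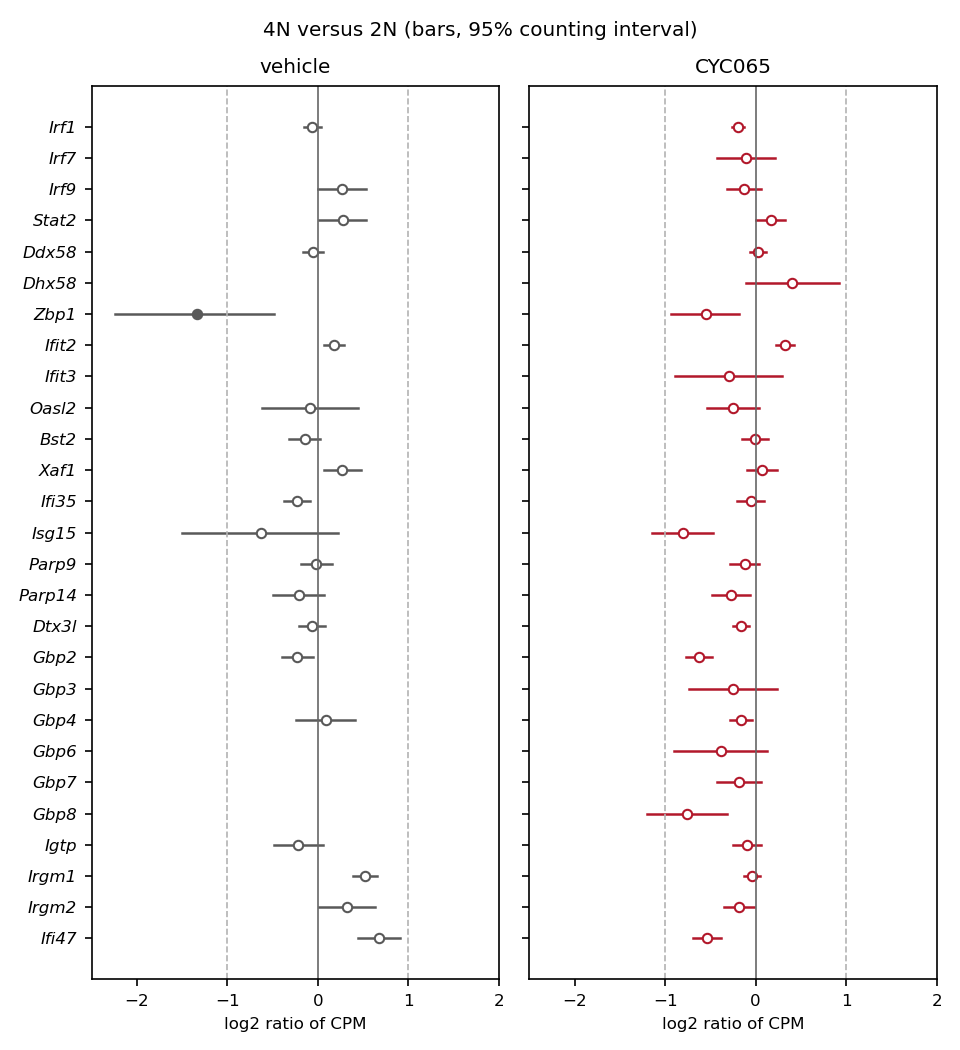
Log2 ratio of CPM between 4N and 2N cells for vehicle (20 members with at least 30 counts) and CYC065 (27 members), with bars for the 95% counting interval. Filled points pass 1 (dashed line), which only *Zbp1* with vehicle did, and most CYC065 points lie slightly left of 0.

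The ligands that induce the members were at or near 0 counts. Of 21 interferon genes, 14 were listed at 0 in all 6 libraries, among them *Ifnb1* and *Ifng*. Only *Ifnz* was compared, with 6, 4 and 3 counts with vehicle and 51, 54 and 32 with CYC065. It was 8.85, 13.0 and 9.24-fold higher, but passed the count limit only through the CYC065 library each time and shares 75.1% of its 50-base stretches with other genes, so its counts are uncertain. The summed counts of the 21 genes were 4 to 6 per vehicle library and 37 to 66 per CYC065 library.

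Of 10 compared genes for interferon receptors and JAK-STAT signalling, 2 were called higher and 0 lower with CYC065 in each of unsorted, 2N and 4N cells. Of all genes, 11.8%, 14.9% and 14.2% were called higher. With 10 genes, a difference from that share was not tested. Those called higher were *Ifnar2*, a type I interferon receptor chain, with log2 ratios of 1.40, 1.14 and 1.07, and *Stat3*, which also serves other cytokines, at 2.30, 2.52 and 2.48-fold. *Ifngr1*, a type II interferon receptor chain, had log2 ratios of 0.15, −0.45 and −0.73.

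Of the nucleic acid sensing and adaptor genes, 14, 14 and 15 were compared in unsorted, 2N and 4N cells. Of these, 0, 1 and 1 were called higher and 1, 0 and 0 lower. Of all genes, 11.8%, 14.9% and 14.2% were called higher and 14.0%, 13.3% and 11.5% lower. With so few genes, a difference from those shares was not tested. *Irf5*, a transcription factor downstream of Toll-like receptors, had log2 ratios of −1.91, −0.83 and −0.88. The adaptor gene *Ticam1* had 0.07, 0.95 and 0.84 and the adaptor gene *Traf3* had −0.77, −0.85 and −0.86.

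Of 13 brakes on interferon signalling and sensing, 0, 1 and 1 were called higher and 4, 3 and 2 lower. Of all genes, 14.0%, 13.3% and 11.5% were called lower. With 13 genes, a difference from that share was not tested. *Nlrc3* was 5.47, 3.75 and 4.24-fold lower with CYC065, and *Rnaseh2a*, a subunit of the enzyme that removes ribonucleotides from DNA, was 2.59, 2.93 and 2.50-fold lower. *Socs3*, an inhibitor of cytokine receptors, was 1.40, 2.47 and 2.73-fold higher.

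A wider list of 38 further interferon-stimulated genes was mixed. Of 30, 29 and 29 compared, 1, 10 and 5 were called higher and 4, 2 and 4 lower in unsorted, 2N and 4N cells, with median log2 ratios of 0.19, 0.58 and 0.33, against 11.8%, 14.9% and 14.2% of all genes higher and 14.0%, 13.3% and 11.5% lower. *Trafd1*, a brake on innate signalling, was 3.92, 3.32 and 3.26-fold higher. In contrast, *Isg20*, an exonuclease gene, was 2.57, 2.44 and 4.13-fold lower and *Apol9b* 2.51, 2.02 and 2.98-fold lower. *Apol9b* shares 52.3% of its 50-base stretches with other genes, mainly *Apol9a*, so its counts are uncertain.

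Of 12 further GBP and IRG genes present, 7 were compared and 6 of the 7 were called higher with CYC065 in each of the 3 populations. Of all genes, 11.8%, 14.9% and 14.2% were called higher in unsorted, 2N and 4N cells. In each population 3 of the 7 passed the count limit only through 1 library. *Gbp9*, *Gbp10* and *Gbp11* were also counted among the chromosome 5 genes above. The largest changes were those of *Gbp11* and *Gbp9*, given above, and *Gvin1*, a giant GTPase gene, with 48, 88 and 243 counts with vehicle and 663, 788 and 808 with CYC065. *Gvin1* shares 99.2% of its 50-base stretches with other genes.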

How the data were processed

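Total RNA was depleted of ribosomal RNA and prepared with a stranded ligation kit. Per the labels, reads were demultiplexed with bcl2fastq, trimmed with cutadapt 1.18, aligned to mm10 with STAR 2.7.0f and quantified with RSEM by the authors, using GENCODE M21. The deposited values are expected counts per gene without normalization or filtering. A fractional value occurred in at least 1 of the 18 columns for 9.66% of genes. For each of 6 groups, 3 columns were rounded after summing to 1 library, since they differed by no more than sampling noise. Nothing in the labels says that they came from separate cultures.

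From the summed counts, CPM was computed after TMM scaling over the 6 libraries (edgeR 4.0.16, R 4.3.3), and ratios with exact binomial intervals (scipy 1.17.1). The ratios and intervals were tested on simulated data. A count of 0 was set to 3 counts in a ratio, and no ratio was given where both libraries held 3 counts or fewer. Alternatives used edgeR's quasi-likelihood test and DESeq2 1.42.0 on the columns, other scaling and other count limits. Shared sequence is the percent of a gene's 50-base exon stretches that occur in another gene. Intervals cover counting error only, and reads without molecular identifiers are not independent molecules. CPM per kb was taken per 1000 bases of exon.

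The members, role groups, pathway lists and marker lists were chosen with earlier results of these data known. All members are accounted for, and those with at least 100 counts in 1 library are given with the values of all 6. From each pathway list, up to 3 genes with the largest change at 100 counts or more are named.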

Additional observations from a re-analysis of the deposited data

Results flagged for a closer look

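For 3 members the change with CYC065 went one way in unsorted cells and the other way in both sorted populations, with all counting intervals clear of 0. The log2 ratio of *Gbp2* was −0.91 in unsorted, 0.60 in 2N and 0.21 in 4N cells. That of *Parp14* was −0.43, 0.76 and 0.70, and that of *Xaf1* was −0.31, 0.58 and 0.38. In each of these genes the unsorted vehicle library had the highest CPM of the 6 libraries. Each population was 1 library per treatment, so the difference was not tested.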

How the results depend on the processing

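With 1 library per group, the spread between cultures was not measured and limits every comparison, and members under 30 counts could not be compared at this depth. Of the alternatives to the counts of members called, to their median ratios and to the share of promoters with an ISRE core, 185 gave the same result and 16 moved it, and none turned a direction. For single members, 682 stayed and 14 moved. In unsorted cells 8 members were called higher. The count was 5 where the whole counting interval had to pass 1, 4 without members sharing over 10% of their 50-base stretches, and 3 with a mean of at least 100 counts, a limit chosen after seeing the data. That limit gave 10 in place of 18 in 2N cells (median 1.10) and 7 in place of 15 in 4N cells. Without the count limit, 2 members were called lower with CYC065 in unsorted cells, 3 higher in 4N than 2N vehicle cells, and 1 higher and 1 lower in 4N than 2N CYC065-treated cells. The call of *Zbp1* in vehicle 4N cells was lost, with 0 members lower, at a limit of 100 counts, with a mean of at least 100 counts, with the interval wholly past 1 and in an edgeR fit that assumed a coefficient of variation of 0.2 between cultures. Leaving out 1 replicate column in turn gave 0 to 1 there, with 0 without replicate 1 and without replicate 2. The vehicle 2N columns of *Zbp1* held 14, 21 and 6 counts, and its vehicle 4N columns 8, 7 and 2. Without replicate 1 or 2 it fell under 30 counts and was not compared. It was also not compared at both limits of 100 counts. Library size scaling moved the median of all genes by 0.14 in 2N and in 4N cells. The percent of calls that were higher moved from 52.8 to 62.9 and from 55.4 to 66.5. Scaling shifts every gene of a comparison by the same amount. The members' median therefore lay 1.43 and 1.19 above that of all genes under any scaling, which is no check of the result.

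The replicate numbers did not pair the columns. Correlations of same-numbered columns ran from −0.065 to 0.067 over 45 pairs, and 7 of 18 columns were closest to a column of their own number. With the number as a replicate block, edgeR called 10, 18 and 15 members higher with CYC065 in unsorted, 2N and 4N cells. The fit with no replicate block and DESeq2 gave the same counts. These fits take the columns as replicates, although the columns differ only by sampling noise. They do not measure the spread between cultures and add no independent support.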

Other observations

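Over the 27 members, Pearson's r between log2 ratios of CYC065 to vehicle was 0.90 for 2N and 4N cells, 0.77 for unsorted and 2N cells and 0.73 for unsorted and 4N cells, against 0.90, 0.81 and 0.80 over all genes compared. The points are genes of the same libraries and are not independent replicates.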
